A study of Mus musculus with 24 samples.

Results

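Unstimulated hippocampal slices of Tsc2+/- mice were compared directly with WT slices that had received DHPG, in steady-state RNA and in ribosome-protected fragments (RPFs). The comparison asked how far the untreated mutant slice resembles a WT slice after group I metabotropic glutamate receptor (mGluR) stimulation, and it used none of the WT vehicle libraries against which both states are usually measured. It was defined by the sample labels, as 3 Tsc2+/- vehicle libraries against 3 WT DHPG libraries in each assay, which are 12 of the 24 libraries of the series. The other 12 libraries hold WT vehicle and Tsc2+/- DHPG slices, and they entered the fits and the values given alongside.

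All slices came from male littermates on postnatal days 28 to 42. The Tsc2+/- mice carried a germline deletion of 1 Tsc2 copy, made by crossing Tsc2 flox mice with a CMV-Cre line and breeding on C57BL/6J, so that every cell of the slice was heterozygous. Tsc2+/- vehicle slices received artificial cerebrospinal fluid, and WT DHPG slices received dihydroxyphenylglycine (DHPG), a group I mGluR agonist, at 100 µM. Both incubations lasted 5 min and were followed by cycloheximide at 100 µg/ml, which stops ribosomes on the mRNA. As the methods describe, CA3 was removed from the slices, several mice were pooled in each library, and the RNA libraries were made from poly(A) RNA. Each lysate was divided between the 2 assays, so RNA and RPF values came from the same pools of mice. The 2 groups thus differed in genotype and in treatment, and a difference between them cannot by itself be assigned to one or the other.

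The TSC1-TSC2 complex keeps the kinase mTORC1 in check by acting on the small GTPase Rheb, and loss of a Tsc2 copy relieves part of that brake. Group I mGluRs signal through Gq and phospholipase C, also feed into mTORC1 and ERK, and trigger a form of long-term depression (LTD) at CA1 synapses that needs new protein synthesis. mTORC1 acts most directly on mRNAs with a 5′ terminal oligopyrimidine (TOP) motif, a C followed by a run of C and T at the first transcribed base, which is carried by mRNAs for ribosomal proteins and elongation factors. RNA-seq measures how much mRNA is present, RPF counts measure how many ribosomes occupy its coding sequence, and the RPF difference minus the RNA difference is the difference in translational efficiency (TE).

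Because TOP mRNAs are the transcripts on which the TSC pathway and mGluR signalling converge, the annotated start sites of 5 of them are shown here, in lower case with the pyrimidine run in capitals. They are the 5 mRNAs of the TOP list with the highest RPF level among those whose window held the motif, defined as a C and at least 4 further C or T within 5 bases of the RefSeq start. This rule is looser than a run at the first transcribed base. The run began at the annotated start in Nap1l1 and on the base before it in Rps6. In Eef1a1, Rpl19 and Naca it began 5 bases before the start, and in Rpl19 and Naca it also ended before the start. Each window of 30 bases, 5′ to 3′ on the transcribed strand, begins 10 bases upstream of the start (GRCm38.p6).
Eef1a1, chr9:78481705-78481734 (-): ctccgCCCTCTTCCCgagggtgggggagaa
Rpl19, chr11:98026700-98026729 (+): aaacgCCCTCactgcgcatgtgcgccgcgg
Nap1l1, chr10:111473217-111473246 (+): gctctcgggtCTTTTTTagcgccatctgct
Naca, chr10:128035336-128035365 (+): tcgttCTCTTaaagaggaaacccggacgcc
Rps6, chr4:86857348-86857377 (-): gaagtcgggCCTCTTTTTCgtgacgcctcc

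The motif stood at an annotated start of 28 of the 57 ribosomal protein genes that have one (49.1%) and 4 of the 10 other TOP genes (40%). The share was 21.2% of all 27025 genes with an annotated start and 23.9% of the 9782 such genes tested in RPF. A match is a description of these letters only, and only the transcribed strand was searched.

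The RNA libraries of the 2 groups held 15319292 to 22344199 counts and the RPF libraries 6761433 to 13613673, the largest being WT DHPG replicate 1 (RPF). Library-to-library variation was small, with a biological coefficient of variation of 7.01% for RNA and 7.04% for RPF over all 12 libraries of an assay. In the RPF libraries of replicates 2 and 3 of the 2 groups, 97.9% to 98.2% of non-zero counts were even, against 49.0% in replicate 1, and the cause was not tested. With those counts halved the number of RPF calls was the same, 3. Levels are given as CPM, counts scaled by TMM to a common library size, in the order of replicates 1, 2 and 3.

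Tsc2, the deleted gene, checked the genotype labels. Its RNA stood at 136, 128 and 137 CPM in Tsc2+/- vehicle and at 199, 202 and 214 CPM in WT DHPG. All 3 mutant libraries lay below all 3 WT libraries, with means of 134 ± 4.84 and 205 ± 8.19 CPM (SD, n = 3), a 1.54-fold difference. RPFs on Tsc2 (chromosome 17, 24595816 to 24632676, GRCm38) stood at 81.2, 79.3 and 77.8 CPM against 128, 123 and 146 CPM, a 1.66-fold difference. The log2 fold change of Tsc2+/- vehicle over WT DHPG was -0.62 in RNA (SE 0.0543, edgeR adjusted p = 1.39e-09) and -0.73 in RPF (SE 0.0734, adjusted p = 2.23e-07). The TE of Tsc2 did not pass the test (log2 difference -0.11, 95% interval -0.29 to 0.07).

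Very few other mRNAs separated the untreated mutant from the stimulated WT. Of 14516 genes tested in RNA, 7 were called at an adjusted p under 0.1 (0.0482%), 6 of them higher in Tsc2+/- vehicle (0.0413%) and 1 lower (0.00689%). In RPF 3 of 12877 genes were called (0.0233%), 2 higher (0.0155%) and 1 lower (0.00777%). Without replicate 3, 15 genes were called in RPF. No gene of 12785 was called for TE (0%), where 519 had an unadjusted p under 0.05 (4.06%) and the smallest adjusted p was 0.797. The counts at an unadjusted p under 0.05 were 830 in RNA (5.72%, with 2.65% higher and 3.07% lower) and 580 in RPF (4.5%, with 2.06% higher and 2.45% lower). The CPM ranges of the groups did not overlap for 10.2% of the genes in RNA and 10.7% in RPF. Tsc2 and Glo1 were called in both assays.

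Glo1, which encodes the glyoxalase that detoxifies methylglyoxal, had the smallest p after Tsc2 in both assays, although 5 other RNA calls had larger folds. Its RNA stood at 118, 120.1 and 110.5 CPM in Tsc2+/- vehicle and at 82.9, 74.7 and 71.7 CPM in WT DHPG. Its RPFs stood at 262, 268 and 268 CPM against 174, 181 and 171 CPM. The groups did not overlap in either assay and the fold was nearly the same, 0.61 on the log2 scale in RNA (SE 0.0622, adjusted p = 5.71e-08) and 0.60 in RPF (SE 0.0612, adjusted p = 2.23e-07). Glo1 lies at 30592861 to 30612659 on chromosome 17, 6 Mb from Tsc2.

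The neighbouring gene Btbd9 (30215524 to 30582621), a BTB-domain protein gene linked to restless legs syndrome, was called in RPF alone. Its RPFs stood at 101, 91.8 and 96.3 CPM in Tsc2+/- vehicle and 74.5, 73.0 and 70.9 CPM in WT DHPG, with no overlap (log2 fold change 0.41, SE 0.0745, adjusted p = 0.0242). Its RNA stood at 142, 132 and 127 CPM against 124, 124 and 127 CPM, and did not pass the test (0.10, adjusted p = 0.898). The TE difference of 0.31 (SE 0.0949) was not called either, with an adjusted p of 0.9999, so the assays were not shown to differ. The RPF call of Btbd9 was lost when any 1 of the 6 libraries or any replicate number was left out, with adjusted p from 0.101 to 0.983.

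Of the 5 other RNA calls, 4 were genes of chromosome 17 as well. Tagap, a GTPase-activating protein gene of T cells, stood at 5.79, 4.92 and 7.49 CPM in Tsc2+/- vehicle and at 1.39, 1.39 and 1.56 CPM in WT DHPG, a 4.15-fold difference (log2 fold change 2.05, SE 0.231, adjusted p = 3.87e-07). The pseudogene Tmem181b-ps stood at 60.4, 56.0 and 61.7 CPM against 35.6, 26.3 and 40.6 CPM (0.81, SE 0.0942, adjusted p = 1.41e-05), a call that was lost without the replicate number in the model (adjusted p = 0.462). Both have near-identical copies nearby, so their values are uncertain. The gene 3110052M02Rik, which RefSeq lists as the zinc finger protein gene Zfp983, stood at 8.80, 5.99 and 6.45 CPM against 3.37, 2.83 and 2.94 CPM, higher in each mutant library (1.20, SE 0.192, adjusted p = 0.000743), and its call was lost without replicate 1 (adjusted p = 0.152). Park2, which encodes the ubiquitin ligase parkin, stood at 9.49, 7.92 and 9.61 CPM against 3.97, 5.43 and 6.06 CPM, again without overlap (0.80, SE 0.169, adjusted p = 0.0646). The Park2 call was lost without Tsc2+/- vehicle replicate 1 or 3, without WT DHPG replicate 1 or 2 without any replicate number, with no replicate number in the model and with only the 2 groups in the fit, with adjusted p from 0.162 to 0.725.

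Xlr3a, a gene of the multi-copy Xlr family on the X chromosome, was the only call off chromosome 17. It had 23, 19 and 9 counts in Tsc2+/- vehicle and 0 in each WT DHPG library. Its mean of 0.798 CPM was at least 4.72-fold higher than the level that 3 counts in each WT DHPG library would give (adjusted p = 0.0180). WT vehicle libraries had 8, 8 and 14 counts and Tsc2+/- DHPG libraries 3, 6 and 2, so the mutant with DHPG lay below WT vehicle. The call was lost without replicate 1 or 2 and without Tsc2+/- vehicle replicate 1 or 2 or any WT DHPG library, and with ComBat not given the group labels (adjusted p from 0.110 to 0.550), and near-identical family members make the count itself uncertain.

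**Figure D1:**
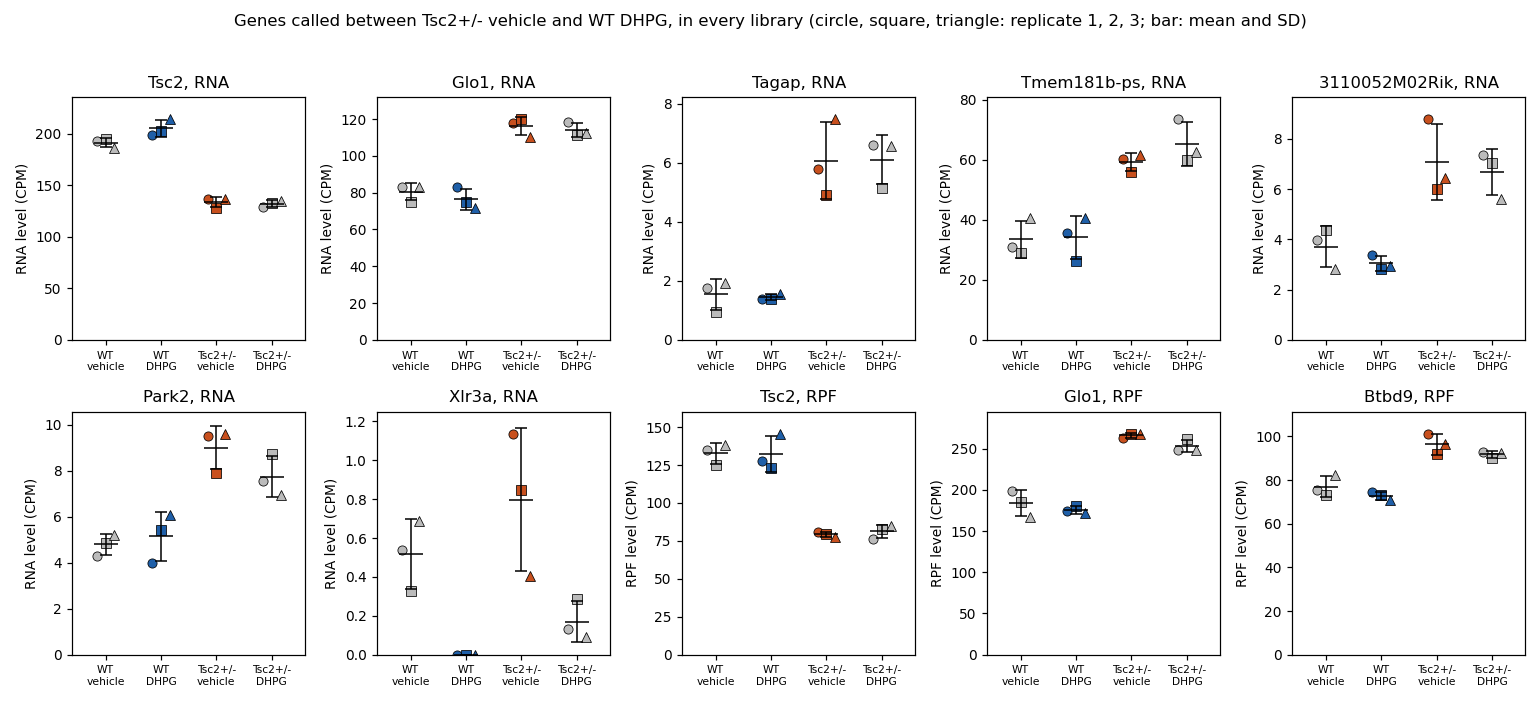
Level in CPM of each gene called in RNA (7) or RPF (3), in all 4 groups; circle, square and triangle are replicates 1, 2 and 3, and bars are the mean and SD of 3 libraries. Tsc2+/- vehicle is orange, WT DHPG is blue and the other groups are grey. For every gene but Xlr3a the Tsc2+/- DHPG libraries sit near Tsc2+/- vehicle and the WT vehicle libraries near WT DHPG; Xlr3a had 0 counts in each WT DHPG library.

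The levels in the other groups place these calls beside the 2 factors of the study. Tsc2 RNA stood at 193, 195 and 186 CPM in WT vehicle and at 129, 133 and 135 CPM in Tsc2+/- DHPG. The genotype difference in vehicle was -0.52 on the log2 scale, while DHPG in WT gave 0.10. For Glo1 RNA these were 0.53 and -0.08, for Tagap 2.01 and -0.05, for Tmem181b-ps 0.83 and 0.02, for 3110052M02Rik 0.92 and -0.29, and for Park2 0.91 and 0.11. For Btbd9 RPFs they were 0.33 and -0.08. The genotype value was the larger of the 2 in each of these genes. The comparison of this report equals the genotype difference minus the DHPG difference, and both of those use the same WT vehicle libraries, so they are set side by side without a test.

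The other 6 libraries of each assay give a comparison that shares no library with the main one, Tsc2+/- DHPG minus WT vehicle. There Tsc2 RNA differed by -0.53, Glo1 by 0.50, Tagap by 2.02, Tmem181b-ps by 0.97, 3110052M02Rik by 0.84 and Park2 by 0.69 on the log2 scale. Of the 7 RNA calls, 6 had the same sign in both comparisons, as did 47.8% of all RNA genes, and Xlr3a was the exception with a fitted value of -1.62. All 3 RPF calls had the same sign (Tsc2 -0.71, Glo1 0.46, Btbd9 0.26), as did 50.2% of all RPF genes. Across all genes the 2 sets of log2 fold changes were nearly unrelated, with Pearson's r of 0.0197 over 14516 genes in RNA and 0.0602 over 12877 genes in RPF. Genes are not independent replicates, and the 2 comparisons share the fit and the replicate numbers. On chromosome 17 without Tsc2, r was 0.422 over 681 genes in RNA and 0.304 over 589 genes in RPF, against -0.00745 and 0.0459 over all other chromosomes together. Taken singly, the other chromosomes ranged from -0.380 to 0.320 in RNA and from -0.113 to 0.214 in RPF.

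**Figure D2:**
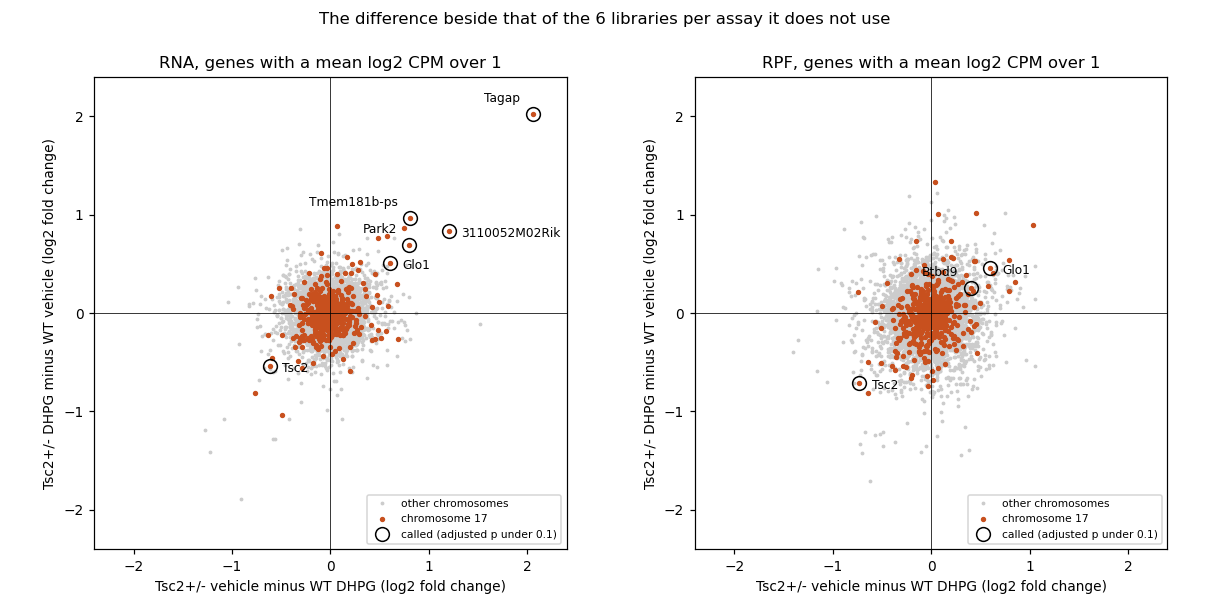
Log2 fold change of Tsc2+/- vehicle over WT DHPG (x axis) against that of Tsc2+/- DHPG over WT vehicle (y axis), which uses the other 6 libraries of the assay; each point is a gene with a mean log2 CPM over 1 (12406 in RNA, 12190 in RPF), of which 3 and 1 fall outside the axes. Orange points are genes of chromosome 17 and rings are called genes, which lie along the rising diagonal except Xlr3a, which is below the level plotted; r over the other chromosomes was -0.00745 in RNA and 0.0459 in RPF.

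Chromosome 17, which carries Tsc2, held a larger share of small p-values than the other chromosomes together. Without Tsc2 itself, 67 of its 681 tested genes had an unadjusted RNA p under 0.05 (9.84%), against 756 of 13765 genes elsewhere (5.49%). In RPF it was 41 of 589 (6.96%), against 537 of 12260 elsewhere (4.38%), and chromosome 15 had a slightly higher share (7.09%). Within 5 Mb of Tsc2, a limit chosen after the positions had been plotted, 26 of 174 genes had such a p in RNA (14.9%), of which 21 were lower in Tsc2+/- vehicle. Beyond 5 Mb it was 41 of 507 (8.09%), of which 27 were higher. In RPF 18 of 155 genes within 5 Mb had such a p (11.6%), 14 of them lower, and beyond it 23 of 434 (5.30%), 14 of them lower as well. Most genes with a small p near Tsc2 were thus lower in the mutant in both assays, while those farther away were mostly higher in RNA only. The median over all genes was below 0 on both sides of the limit, -0.04 and -0.02 in RNA. The cause was not tested.

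The genes of chromosome 17 with an unadjusted RNA p under 0.001, chosen after their values were seen, numbered 13 with Tsc2, and 7 were higher and 6 lower. Spsb3, 0.29 Mb from Tsc2, stood at 23.8, 23.4 and 22.4 CPM in Tsc2+/- vehicle and 25.2, 33.2 and 31.2 CPM in WT DHPG (-0.36, adjusted p = 0.406). Hmga1, an architectural chromatin protein gene 2.96 Mb away, stood at 78.6, 71.7 and 72.3 CPM against 87.7, 92.4 and 91.5 CPM (-0.29, adjusted p = 0.160). Ppil1, a spliceosomal cyclophilin gene, stood at 7.66, 7.92 and 6.23 CPM against 12.0, 11.1 and 9.80 CPM (-0.59, adjusted p = 0.164). None of these 3 overlapped between the groups, as was so for all 13 genes picked by this p and for 10.2% of all genes tested in RNA. None of the 3 was called. Their RPF differences were -0.13, -0.17 and 0.04. Mut, the mitochondrial methylmalonyl-CoA mutase gene 16.3 Mb away, leaned up in both assays. Its RPFs stood at 91.9, 94.1 and 92.8 CPM against 75.1, 72.3 and 69.9 CPM (0.36, SE 0.0741, adjusted p = 0.111) and its RNA at 32.2, 26.8 and 32.8 CPM against 25.2, 24.4 and 22.5 CPM (0.35, adjusted p = 0.416).

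**Figure D3:**
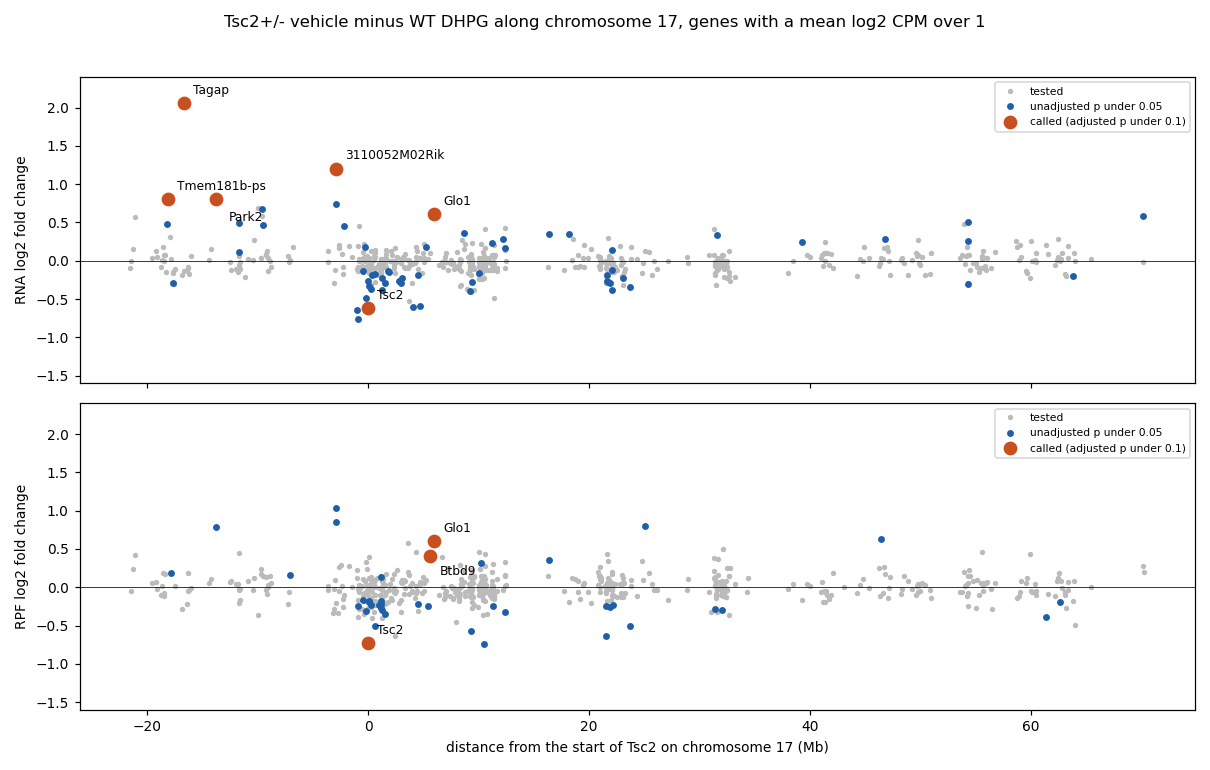
Log2 fold change of Tsc2+/- vehicle over WT DHPG along chromosome 17, by distance from the start of Tsc2 in Mb, for genes with a mean log2 CPM over 1, in RNA (upper panel) and RPF (lower panel). Orange points are called genes and blue points have an unadjusted p under 0.05; the blue points crowd below 0 near Tsc2, where 21 of 26 genes of RNA were lower.

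Among the genes with an unadjusted p under 0.01 in RNA and in RPF there were 13, and all 13 had the same direction in both assays, 8 higher and 5 lower. They were Tsc2, Glo1, 3110052M02Rik, Park2, Mut, Bricd5 and Decr2 of chromosome 17, and Cnn2, Rph3a, Sac3d1, Iqgap2, Doc2a and Ugt8a of other chromosomes. Rph3a and Doc2a, both calcium-binding proteins of synaptic vesicle release, stood lower, at -0.20 in RNA and -0.20 in RPF for Rph3a and at -0.34 and -0.47 for Doc2a, and neither was called. Over all 12785 genes r between RNA and RPF log2 fold changes was 0.103. With the limit on p set at 0.05 for each assay, 55 of 70 genes had the same direction. The list was read off these data and carries no test. Since RNA and RPF libraries were made from shared lysates, the same direction in both assays is not independent evidence.

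The likeness of the 2 states was measured by intervals, since a p above the threshold does not show that values are alike. In RNA 10277 of 14516 genes (70.8%) had a 95% interval of the log2 fold change within ±0.5, and 12603 (86.8%) within ±1. In RPF these were 8780 of 12877 genes (68.2%) and 11622 (90.3%). The share within ±0.5 was 71.0% to 71.6% in the 5 other comparisons of the 4 groups in RNA and 63.2% to 67.3% in RPF. The share for Tsc2+/- vehicle against WT DHPG was therefore the lowest of 6 in RNA, by a small margin, and the highest in RPF. This share also depends on precision, so the rank does not measure likeness alone. With the RPF counts of replicates 2 and 3 halved, 9176 of 12062 genes tested in RPF had an interval within ±0.5. The other comparisons were not run on halved counts, so the rank in RPF holds for the counts as deposited only. The median SE in RPF was the smallest of the 6 for this comparison, 0.126 against 0.128 to 0.133. Only 18 genes in RNA and 2 in RPF had an interval wholly beyond ±0.5, among them Tsc2 in both assays.

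Distances between same-numbered libraries measured likeness over all genes at once. The root mean square difference of log2 CPM between Tsc2+/- vehicle and WT DHPG was 0.391, 0.376 and 0.449 in RNA for replicates 1, 2 and 3, a mean of 0.405 ± 0.0386 (SD, n = 3). The other 5 pairs of groups ranged from 0.373 to 0.407, and libraries of the same group lay 0.405 apart in WT DHPG and 0.426 in Tsc2+/- vehicle, against 0.387 for WT vehicle and 0.417 for Tsc2+/- DHPG. The distance between the 2 states thus lay within the range of those inside groups. Pairs between groups share a replicate number and those inside a group do not, so the 2 kinds are not matched. In RPF the distances were 0.230, 0.373 and 0.399, a mean of 0.334 ± 0.0909, the smallest of the 6 pairs of groups. WT DHPG to Tsc2+/- DHPG was next at 0.349, and the pair of WT vehicle and Tsc2+/- DHPG was the farthest at 0.401. The SDs are larger than the steps between neighbouring pairs, so their order is not resolved by 3 library pairs. With every RPF library thinned to 5296006 counts, the total of the shallowest, the distance was 0.366 ± 0.0571, the smallest against 0.372 to 0.406. The thinning used the counts as deposited, with the mostly even counts of replicates 2 and 3 not halved. It may therefore not have made the noise from depth equal, and it does not settle the order. Distances within WT vehicle were the largest of all in RPF (0.445). Distances within groups were not thinned, and the shallowest RPF library was WT vehicle replicate 3. The WT vehicle libraries entered the fits through the shared estimate of spread and the replicate term, and with only the 2 compared groups in the fit 14 genes were called in RPF.

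**Figure D4:**
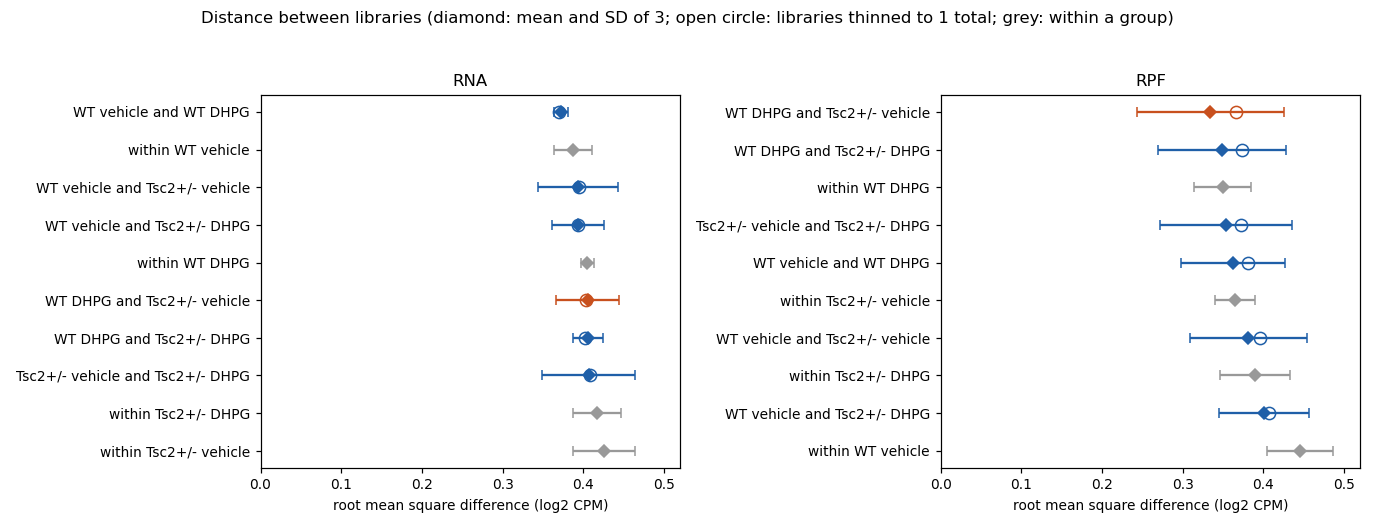
Root mean square difference of log2 CPM between libraries, in RNA (left) and RPF (right); diamonds are the mean of 3 same-numbered library pairs with the SD, open circles the same after thinning to 1 total, and grey diamonds distances within a group. Tsc2+/- vehicle to WT DHPG (orange) lies at 0.405 in RNA and at 0.334 in RPF, where it is the leftmost of the 6 pairs of groups with bars that overlap the others.

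Genes with the largest DHPG response in WT RPFs were followed in WT vehicle, WT DHPG and Tsc2+/- vehicle. They were chosen after their values were seen, and their response shares the WT DHPG libraries with the main comparison. DHPG in WT called 4 genes in RPF (0.0311% of those tested) and none in RNA, where 936 had an unadjusted p under 0.05 (6.45%) and the smallest adjusted p was 0.473. Npcd, which overlaps the neuronal pentraxin receptor gene Nptxr so that reads cannot be told apart with certainty, had RPFs of 219, 208 and 228 CPM in WT vehicle and 139, 155 and 147 CPM in WT DHPG. In Tsc2+/- vehicle it stood at 177, 198 and 180.2 CPM, between the 2 WT groups (main difference 0.34, SE 0.0737, adjusted p = 0.172). Atp6v1f, a subunit of the vacuolar proton pump, went from 101, 118 and 110.3 CPM in WT vehicle to 140.2, 159 and 147 CPM in WT DHPG and stood at 129, 120.4 and 135 CPM in Tsc2+/- vehicle, again between them (-0.21, adjusted p = 0.998). Rab11fip3, an effector of Rab11 in endosome recycling, stood at 91.4, 70.3 and 87.9 CPM in WT vehicle, at 64.1, 58.1 and 66.6 CPM in WT DHPG and at 71.4, 60.5 and 64.2 CPM in Tsc2+/- vehicle. Its main difference was 0.06 (95% interval -0.11 to 0.23), and the mutant libraries lay within or near the range of WT DHPG. Usmg5, a small subunit of ATP synthase, stood at 279.6, 344 and 315 CPM in WT vehicle, at 349, 387 and 401 CPM in WT DHPG and at 334, 367 and 359 CPM in Tsc2+/- vehicle (-0.10, adjusted p = 0.998).

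Genes called for genotype in vehicle numbered 13 in RNA (0.0896%), and 3 of those outside chromosome 17 are given here, chosen after their values were seen. The genotype value shares the Tsc2+/- vehicle libraries with the main comparison and the WT vehicle libraries with the DHPG value, so these values are a description. Kif5a, a kinesin motor of axonal transport, stood at 3969, 4401 and 3782 CPM in WT vehicle, 4243, 4818 and 4373 CPM in WT DHPG and 4362, 5157 and 4811 CPM in Tsc2+/- vehicle. Its genotype difference in vehicle was 0.24 and DHPG in WT gave 0.14, which left 0.09 (adjusted p = 0.853). The nuclear noncoding RNA Malat1 gave -0.45 for genotype, -0.28 for DHPG in WT and -0.17 between Tsc2+/- vehicle and WT DHPG (adjusted p = 0.787). The protocadherin Pcdhgb1 gave 0.42, 0.05 and 0.37 (adjusted p = 0.164), most of its genotype value.

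No member of the gene lists other than Tsc2 was called, and the lists are described by counts and medians beside those of all genes, whose median log2 fold change was -0.00 in both assays. Calls made up 0.0482% of all genes tested in RNA and 0.0233% in RPF, so a list without a call is not thereby set apart. Of the upstream receptors and their partners, 30 group I mGluR signalling genes were tested, and in both assays all 30 had an interval within ±0.5. Their median was 0.01 in RNA, with 1 higher and 1 lower at an unadjusted p under 0.05, and -0.02 in RPF, with none. Grm5, which encodes mGluR5, stood at 352, 409 and 426 CPM in Tsc2+/- vehicle and at 392, 393 and 375 CPM in WT DHPG in RNA (0.03, 95% interval -0.08 to 0.15), and its RPF difference was 0.09 (-0.03 to 0.21). Homer1, the scaffold of these receptors, differed by 0.06 in RNA and -0.01 in RPF.

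Of the TSC and mTOR pathway, 38 genes were tested, 36 of them with an RNA interval within ±0.5, and the median was -0.01 in RNA and -0.00 in RPF. Tsc1, the partner of Tsc2, differed by -0.04 in RNA (-0.20 to 0.12) and 0.16 in RPF (-0.09 to 0.42). Rheb differed by 0.03 and -0.06, and Mtor, the kinase itself, by -0.04 and -0.03. In RPF 32 of the 38 had an interval within ±0.5, with log2 fold changes from -0.73 (Tsc2) to 0.46, so likeness was shown for fewer members there than in RNA.

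The 79 cytosolic ribosomal protein mRNAs tested all had an RNA interval within ±0.5, 26 stood higher and 53 lower, and their median was -0.02. Its value was 0.07, -0.10 and -0.03 in library pairs 1, 2 and 3, so the pairs did not go one way. The same list had a median of -0.11 for genotype in vehicle and of -0.09 for DHPG in WT, 2 values that share the WT vehicle libraries. In RPF all 78 tested were within ±0.5, 46 higher and 32 lower, with a median of 0.01. Rps10, on chromosome 17 and 3.03 Mb from Tsc2, was the only one with an unadjusted RNA p under 0.05 (93.5, 104 and 94.4 against 111, 126 and 105 CPM, -0.23, adjusted p = 0.857). For TE the median was 0.03 (pairs -0.12, 0.13 and 0.06), and 5 were higher at an unadjusted p under 0.05, as were 1.81% of all genes tested for TE. Pseudogene copies of ribosomal protein genes make single values uncertain.

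The 5 mRNAs whose start sites are printed above illustrate this. Rps6, the ribosomal protein phosphorylated downstream of mTORC1, stood at 207, 208 and 189 CPM in RNA of Tsc2+/- vehicle and at 194, 218 and 198 CPM in WT DHPG, and its RPFs stood at 221, 233 and 230.4 against 225, 243 and 232 CPM. The log2 differences were -0.01 (95% interval -0.16 to 0.14) and -0.03 (-0.15 to 0.09), with the groups overlapping in both assays. Eef1a1, the factor that brings tRNAs to the ribosome, differed by 0.04 in RNA (-0.05 to 0.14) and 0.05 in RPF (-0.05 to 0.14), Rpl19 by -0.05 and -0.05, Nap1l1 by 0.07 and -0.07, and Naca by -0.02 and 0.02. The 17 TOP mRNAs that encode no ribosomal protein had a median of 0.01 in both assays, and all 17 were within ±0.5 in RPF. Eif3e, an initiation factor subunit, was the one with an unadjusted RNA p under 0.05 (80.2, 80.2 and 79.9 against 66.6, 73.0 and 70.8 CPM, 0.19, adjusted p = 0.617). The elongation factor Eef2 differed by -0.03 in RNA and -0.02 in RPF.

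The 52 long synaptic mRNAs bound by FMRP, the translational repressor lost in fragile X syndrome, had a median of -0.02 in RNA, with 20 higher and 32 lower, and all 52 had an interval within ±0.5. Their median was 0.07 for genotype in vehicle and 0.08 for DHPG in WT. In RPF 35 were higher and 17 lower, with a median of 0.03 (pairs 0.10, 0.00 and -0.06), while genotype in vehicle gave -0.05 and DHPG in WT -0.09. At an unadjusted p under 0.05 there were Apc (0.17), Macf1 (0.14) and Lrp1 (-0.14) in RNA and Grin2a (0.12) in RPF. Map1b, an FMRP target that takes part in mGluR-LTD, stood at 1241, 1397 and 1512 CPM against 1349, 1347 and 1436 CPM in RNA, with a difference of 0.00 (-0.11 to 0.12). Shank3, a postsynaptic scaffold, differed by -0.03 and 0.02, and Dlg4, which encodes PSD-95, by -0.02 and 0.04. The 14 mGluR-LTD effector mRNAs had medians of 0.01 in RNA and 0.04 in RPF.

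Immediate early genes report recent synaptic activity, and 29 were tested. Their RNA median was -0.05, with 9 higher and 20 lower and pairs of -0.00, -0.08 and -0.06, and their RPF median was -0.01. Fos stood at 128, 117 and 138 CPM in RNA of Tsc2+/- vehicle and 126, 122 and 165 CPM in WT DHPG, with overlap (-0.10, 95% interval -0.23 to 0.03), and at -0.06 in RPF. Arc, whose new synthesis is linked to mGluR-LTD, differed by -0.09 in RNA and -0.01 in RPF, Egr1 by -0.00 and 0.02, and Npas4 by 0.20 and 0.14. Egr4 (-0.20) and Dusp1 (-0.15) were the 2 with an unadjusted RNA p under 0.05, and neither was called. No immediate early gene was called between the stimulated WT and the untreated mutant, where 0.0482% of all genes tested were called in RNA and 0.0233% in RPF. The absence of a call is therefore not particular to these genes.

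No receptor or channel of the synapse was called. Of 36 glutamate receptor and scaffold genes, Grm2 (-0.34, adjusted p = 0.480), Grin2d (-0.32) and Grm4 (-0.27) were lower and Gria2 (0.16) was higher at an unadjusted RNA p under 0.05 (11.1%, against 5.72% of all genes), and the list's median was -0.02 in RNA and 0.04 in RPF. Intervals lay within ±0.5 for 33 of the 36 in RNA and 34 in RPF. Of 14 GABA-A receptor subunits, Gabra2 alone reached such a p, at 88.5, 129 and 120.0 CPM against 91.2, 106 and 86.9 CPM (0.24, adjusted p = 0.599). Of the 14, 12 had an RNA interval within ±0.5, and their log2 fold changes ran from -0.53 to 0.41. The GABA-A median was 0.05 in RNA and 0.02 in RPF, where genotype in vehicle gave 0.10 and DHPG in WT 0.09. The neurensin Nrsn1, a vesicle protein of neurites, had RPFs of 46.1, 47.5 and 46.0 CPM against 37.8, 35.7 and 28.1 CPM and RNA of 371, 370.5 and 363 against 368, 398 and 326 CPM. Its RPF ranges did not overlap (0.45, adjusted p = 0.423), its TE difference was 0.42 (SE 0.108, adjusted p = 0.797), and neither was called. The other genes with the smallest TE p were Zfyve26 (0.84), Ppp1r11 (-0.47), Car10 (0.82) and Stard3nl (-0.60), each with an adjusted p of 0.797.

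Oxidative phosphorylation was the function list with the most one-sided RPF values. Of 77 subunits 67 were lower in Tsc2+/- vehicle and 10 higher, 8 had an unadjusted p under 0.05 and all 8 were lower, against 2.45% of all genes tested that were lower at such a p. The size was small, with a median of -0.05 and pairs of -0.07, -0.07 and 0.00, so that the third pair did not share it. Ndufb8, a complex I subunit, had RPFs of 146, 143 and 139 CPM in Tsc2+/- vehicle and 166, 161 and 156 CPM in WT DHPG (-0.18, SE 0.0650, adjusted p = 0.998). Atp5g1, a subunit of the ATP synthase ring, stood at 204, 209 and 199 CPM against 227, 229 and 232 CPM (-0.17, adjusted p = 0.998). In both genes every mutant library lay below every WT DHPG library. The groups did not overlap, in either direction, for 10.7% of all genes tested in RPF. The list's RPF median was 0.03 for genotype in vehicle and 0.10 for DHPG in WT. In RNA 29 were higher and 48 lower, with a median of -0.02. The 46 lysosome and V-ATPase genes had medians of 0.01 in RNA and 0.02 in RPF, the 48 DEAD and DEAH box helicases 0.03 and -0.02, and the 14 heat shock and chaperone genes 0.05 and 0.00.

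Of the 14 heat shock and chaperone genes 8 were higher and 6 lower in RPF. The 2 with the smallest p, Hspa5 and Hsp90b1 of the endoplasmic reticulum, both stood higher. Hspa5 stood at 1329, 1413 and 1444 CPM against 1254, 1209 and 1289 CPM (0.16, SE 0.0445), and Hsp90b1 at 983, 1005 and 1030.0 against 951, 920.3 and 942 CPM (0.10, SE 0.0464). The groups overlapped for neither gene, as for 10.7% of all genes tested in RPF, and both adjusted p were 0.998. In WT vehicle Hspa5 stood at 1261, 1234 and 1328 CPM and in Tsc2+/- DHPG at 1374, 1351 and 1471 CPM.

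**Figure D5:**
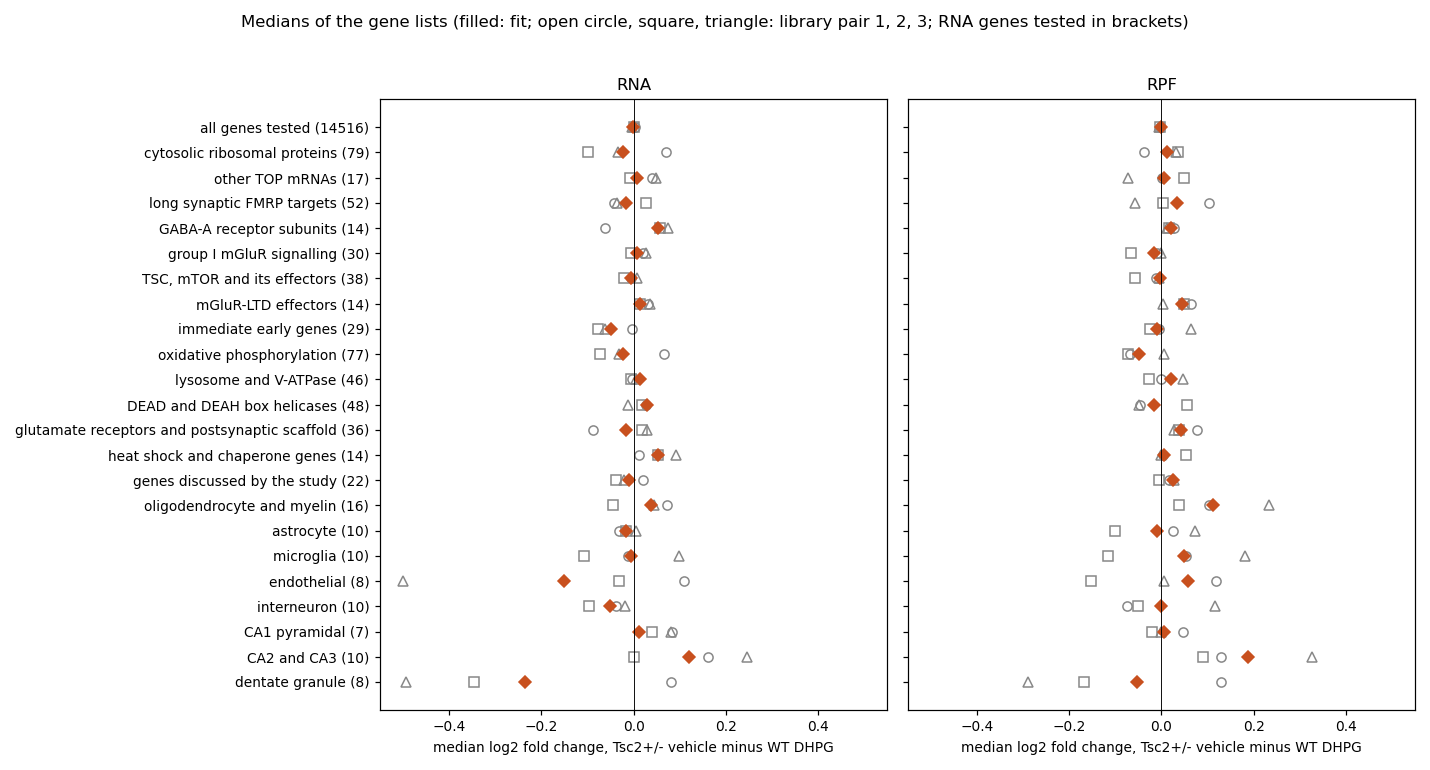
Median log2 fold change of Tsc2+/- vehicle over WT DHPG for each gene list in RNA (left) and RPF (right); filled diamonds are the fit, open circles, squares and triangles are library pairs 1, 2 and 3, and brackets give the genes tested in RNA. The function lists lie near 0, the farthest at 0.05, and the pairs scatter to both sides of 0 for most, while the markers of CA2 and CA3, dentate granule cells and endothelium lie farther out in RNA.

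The cell make-up of the slices was checked with marker genes, and in bulk tissue fewer cells of a type and less RNA per cell cannot be told apart. CA1 pyramidal markers were at like levels, with 7 of 7 tested, summed RPF levels of 1241 to 1367 CPM in Tsc2+/- vehicle and 1240.5 to 1293 CPM in WT DHPG and medians of 0.01 in both assays. Markers of CA2 and CA3, of which CA3 had been cut away, were present, with 10 of 11 tested and summed RPF levels of 463, 380.0 and 419 CPM in Tsc2+/- vehicle and 421, 349 and 337 CPM in WT DHPG. Of these 10, 9 were higher in RPF, with a median of 0.19 and pairs of 0.13, 0.09 and 0.33, and 7 were higher in RNA, with a median of 0.12. Amigo2, a cell adhesion gene of CA2, had RPFs of 19.7, 14.1 and 20.3 CPM against 13.6, 11.5 and 11.4 CPM (0.55, adjusted p = 0.998). Cacng5, a glutamate receptor auxiliary subunit, had RNA of 19.7, 16.8 and 22.2 CPM against 15.0, 14.5 and 12.8 CPM (0.47, adjusted p = 0.364). All 8 dentate granule markers were tested, with an RNA median of -0.24 and pairs of 0.08, -0.35 and -0.49, while in RPF 4 were higher and 4 lower with a median of -0.05. The RNA of Prox1, the transcription factor of these cells, stood at 13.99, 16.95 and 14.03 against 16.8, 22.6 and 20.9 CPM (-0.43, adjusted p = 0.440), and its RPF difference was 0.01. The part of such differences in subfield content in the gene differences above was not tested.

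Oligodendrocyte and myelin markers leaned higher in Tsc2+/- vehicle than in WT DHPG. Of 16 tested in RPF, 15 were higher and 6 had an unadjusted p under 0.05, all higher, against 2.06% of all genes that were higher at such a p. The median was 0.11 in RPF (pairs 0.10, 0.04 and 0.23) and 0.04 in RNA. In RPF the list's median was 0.09 for genotype in vehicle, -0.05 for genotype under DHPG and -0.04 for DHPG in WT. Tsc2+/- DHPG minus WT vehicle, which shares no library with the main comparison, gave -0.09, the opposite direction. Ugt8a, the enzyme of galactosylceramide synthesis, had RPFs of 258, 194 and 257 CPM against 223, 179 and 179 CPM (0.28, SE 0.0733, adjusted p = 0.790), with overlap. Summed over the 16 genes, RPF levels were 6019 to 7490.1 CPM in Tsc2+/- vehicle and 5933 to 6638 CPM in WT DHPG, which overlap. Astrocyte markers (10 tested) had medians of -0.02 and -0.01, microglial markers (10) -0.01 and 0.05, endothelial markers (8) -0.15 and 0.06, and interneuron markers (10) -0.05 and -0.00 in RNA and RPF. Choroid plexus genes (2 tested) had medians of 0.09 and 0.12, and genes that mark male and female tissue (4 tested) 0.03 and 0.07. Blood genes (4 tested in RNA) summed to 16.5, 2.59 and 14.1 CPM against 35.2, 22.3 and 16.3 CPM, with a median of -1.25 and pairs of -0.998, -2.93 and -0.29, and the blood genes listed in RPF summed to at most 1.53 CPM in any of the 6 libraries.

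The genes on which the study's text dwells were read in the same way. Snph, a protein that docks axonal mitochondria, differed by -0.01 in RNA (95% interval -0.10 to 0.09) and 0.04 in RPF, and Slc25a23, a mitochondrial carrier, by -0.00 and -0.04. Camk2a, the kinase of synaptic plasticity, differed by 0.04 and 0.06, and Ache, the acetylcholinesterase, by -0.05 and -0.11. Fmr1, which encodes FMRP, differed by 0.12 (-0.04 to 0.29) and 0.07, and Rps25 by 0.03 and -0.00. Over the 22 genes of this list, 1 was higher and 1 lower at an unadjusted p under 0.05 in each assay, Tsc2 being the lower one in both, and the median was -0.01 in RNA and 0.03 in RPF. The list was chosen by the study on these samples and is not independent evidence of a direction.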

How the data were processed

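RNA-seq and ribosome profiling libraries of 8 groups of 3 were used, 24 in all, grouped by the genotype, treatment and assay in the labels. The authors trimmed adapters, filtered reads by quality, discarded rRNA and tRNA reads, mapped the rest to mm10, and kept unique reads without duplicates of a molecular identifier. They deposited RSEM expected counts for each gene as whole numbers, without batch correction. RNA reads had been counted over whole transcripts and RPF reads over coding sequences without their ends. Every column belonged to a sample (0 columns unused).

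Low genes were removed by filterByExpr (edgeR 4.0.16, with its minimum count set to 10; 14516 genes left for RNA, 12877 for RPF), followed by TMM scaling. A robust quasi-likelihood model (edgeR, R 4.3.3, two-sided) was fitted to the 12 libraries of each assay, with terms for group and for replicate number. Benjamini-Hochberg adjustment covered every gene in the table, with calls made at adjusted values below 0.1. TE was the assay-by-group interaction in 1 model of all 24 libraries (12785 genes), in place of the study's anota2seq. This model did not pair the RNA and RPF libraries of a lysate. With same-numbered libraries of a group taken as 1 lysate and used as a block, 0 genes were called for TE. Replicates are separate pools of mice, as the methods describe. Each SE was derived from the F statistic. Distances used a prior count of 2. Where all libraries of a group held at most 3 counts, the fold was given as a bound.

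Named were Tsc2, up to 12 called genes a direction by adjusted p that went the same way in 3 of 3 library pairs, the 5 smallest p where none was called, the 2 smallest p of each function list, genes of the study's text and 10 genes of the pathway. Every other gene given with values, markers of cell types included, was picked with its values in view. Some of the named genes are not reported here. The comparison and the lists were chosen with earlier results of these data known. RefSeq positions on GRCm38.p6, the build of mm10, matched 14447 RNA and 12850 RPF genes. The test was checked on simulated counts. Alternatives were other scaling, filters, bounds and thresholds, no replicate number, DESeq2 1.42.0, ComBat of sva 3.50.0 with DESeq2, halved RPF counts of replicates 2 and 3, removal of GC and length trends, the 2 groups alone, leaving out libraries, and, added after seeing the data, thinned libraries.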

Additional observations from a re-analysis of the deposited data

How the results depend on the processing

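Tsc2, Glo1 and Tagap were called under every alternative run on them. No called gene changed direction (0 of them), while 63 of the 177 named values, all uncalled, changed sign in some alternative. Without a filter on low counts 15 genes were called in RNA and 6 in RPF, with the trends in GC content and length removed 12 and 5, with ComBat not given the group labels followed by DESeq2 12 and 5, and with ComBat given the labels, a step that uses the groups being compared, 88 and 10. With only the 2 groups in the fit RPF had 14 calls. Leaving out a replicate or library gave 6 to 10 calls in RNA, 2 to 15 in RPF and 0 to 1 in TE. The 15 RPF calls came without replicate 3 and the TE calls without replicate 3 or Tsc2+/- vehicle replicate 3, where 1 gene each was called. Genes held close numbered 5511 in RNA and 3549 in RPF at a bound of 0.25, and 8891 to 9804 and 7024 to 8025 with a replicate number or a single library left out. The distance was 0.488 in RNA with a prior count of 0.5, 0.230 in RNA and 0.214 in RPF over genes with a mean count of at least 50, and 0.383 to 0.420 in RNA and 0.302 to 0.386 in RPF with a replicate left out. The cause of these shifts was not tested. Among the alternatives of the named genes 3654 kept their side of the threshold, 41 gained a call and 30 lost one.

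Same-numbered libraries of the 2 groups deviated together in part. The correlation of deviations was 0.208, 0.0918 and 0.147 in RNA and 0.322, 0.0317 and 0.0672 in RPF. Every RNA library correlated best with its own number, while in RPF Tsc2+/- vehicle replicate 2 correlated better with WT DHPG replicate 3. The study corrected its counts for batch, but the labels do not say whether replicate numbers stand for its batches. Without the replicate block, 5 genes were called in RNA, 2 in RPF and 0 in TE. Genes held close then numbered 10025 and 8486. The calls of Tmem181b-ps (adjusted p = 0.462), Park2 (0.163) and Btbd9 (0.108) were not made without it.

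The median SE of a log2 fold change was 0.126 in the shallower RPF libraries and 0.109 in RNA, which limits the differences that could be detected.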
